A study of Prunus persica with 20 samples.

Results

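The genes described here are those with strongly high transcript levels in Sunraycer alone, and 213 of the 26811 genes in the count table met the rule. Levels were counts scaled to a common library total (CPM), averaged over the libraries of each accession. A member had a Sunraycer mean of at least 5 CPM that was at least 5 times the largest of the MN, TN7 and TN11 means. These values chose the members, so the differences between Sunraycer and the other accessions are given as a description, with no test.

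RNA from young peach (Prunus persica) fruit at fruit set was sequenced in 4 accessions. Sunraycer is a commercial nectarine stated gg (5 libraries), and MN, the Maravilha Nectarine Mutant, is a smooth-fruited mutant of a peach stated Gg (5 libraries). TN7 is a peach stated Gg (4 libraries; replicate 4 was not analysed here), and TN11 is a peach stated GG (5 libraries). The study asked how fruit hairs are controlled, above all in MN. Each combination of stated genotype and fruit surface was 1 accession, so genotype cannot be told apart from any other difference between accessions. Nothing says whether replicates were separate trees or fruits, so p-values measure only the spread between these libraries, which may be technical.

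As background, peach skin is covered with short hairs (trichomes) that a nectarine lacks, and the trait follows the G locus. The G allele carries a working MYB transcription factor gene, PpMYB25, that is needed for hairs to form, and nectarine fruit carries a disrupted g allele. Fruit set is the start of fruit growth after flowering, when ovary tissue changes quickly from day to day. The gene IDs of the count table are not paired with names or functions in the sources used here (0 IDs matched the 26412 genes of the reference table), so the members are named by ID only, no role is given to them, and no ID was taken as PpMYB25.

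Library totals lay between 14890206 and 24474843 counts. The median gene was lower in Sunraycer than in the others on the CPM scale, and TMM scaling (edgeR's correction for composition) moved the Sunraycer difference of the median gene by 0.122 to 0.154 on the log2 scale. Fewer cells of a type and less RNA per cell cannot be told apart in such bulk samples.

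The members covered a wide range of levels. Their Sunraycer means ran from 5.02 to 2417 CPM with a median of 24.9 CPM, and 42 of the 213 reached 100 CPM. Their median level was 1.23 CPM in MN, 1.76 CPM in TN7 and 2.34 CPM in TN11. The ratio of the Sunraycer mean to the largest other mean had a median of 7.60 with quartiles of 5.82 and 12.6, over the 211 members with a count in another accession. It was at least 10 in 75 members and at least 100 in 8, those with no count elsewhere included. TN11 held the largest of the other means in 131 members, TN7 in 44 and MN in 36. The same rule with another accession in the place of Sunraycer gave 22 genes for MN, 7 for TN7 and 22 for TN11.

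**Figure D1:**
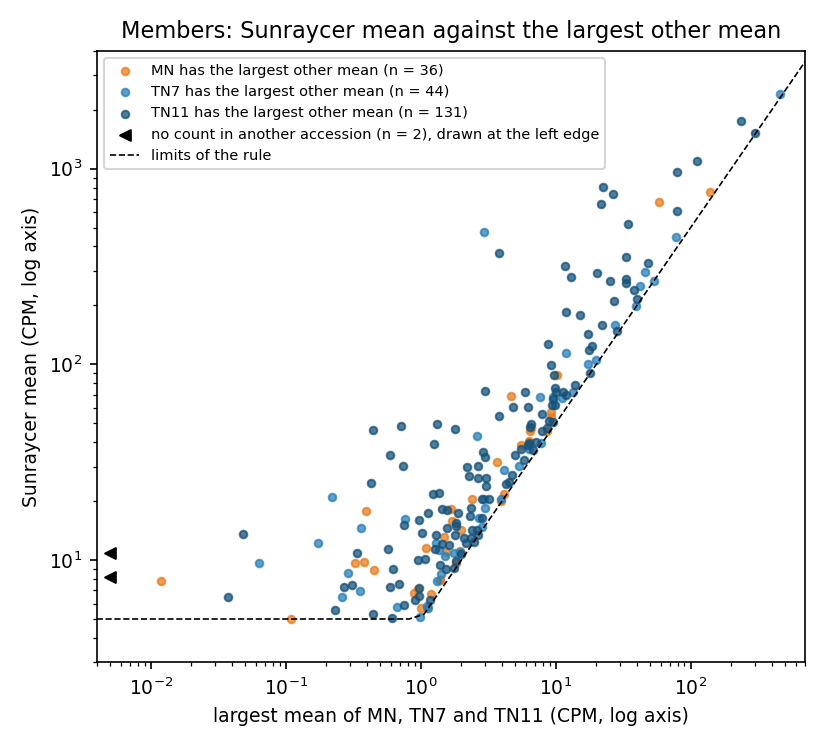
Sunraycer mean of each member (CPM, log axis) against the largest of the MN, TN7 and TN11 means (CPM, log axis), coloured by the accession with that largest mean; the dashed lines are the limits of the rule at 5 CPM and at 5 times. The median ratio is 7.60 over the 211 members with a count in another accession. A ratio of at least 100 is held by 8 of the 213 members, the 2 with no count outside Sunraycer included.

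Near the limits the values were as close as a fixed limit implies. Just inside the ratio limit were Prupe.7G130000.v2.1 (12.4 CPM in Sunraycer, 2.47 CPM in TN11), Prupe.7G153500.v2.1 (267 CPM in Sunraycer, 53.2 CPM in TN7) and Prupe.5G151400.v2.1 (5.68 CPM in Sunraycer, 1.13 CPM in TN7). Just outside it were Prupe.2G164900.v2.1, Prupe.2G295300.v2.1 and Prupe.7G250800.v2.1, with ratios of 4.99, 4.99 and 4.95. At the level limit, Prupe.6G307800.v2.1, Prupe.6G041500.v2.1 and Prupe.6G024100.v2.1 were inside at 5.02, 5.07 and 5.09 CPM in Sunraycer. Outside it were Prupe.6G349200.v2.1, Prupe.5G119500.v2.1 and Prupe.2G198100.v2.1 at 4.98, 4.83 and 4.78 CPM.

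Summed over the 213 members, the level was 29049, 20826, 14127, 31320.3 and 25301 CPM in Sunraycer 1, 2, 3, 4 and 10. In MN 1, 3, 4, 5 and 6 the sum was 505, 218, 3262, 1717 and 973 CPM. It was 561, 858, 767 and 5353 CPM in TN7 1, 2, 3 and 5, and 1876, 4892, 4939, 899 and 773 CPM in TN11 1, 2, 3, 4 and 5. The members thus made up 1.41% to 3.13% of all counts in a Sunraycer library and at most 0.535% in a library of another accession. No other library reached the lowest Sunraycer sum, but MN 4, TN7 5, TN11 2 and TN11 3 stood well above other libraries of their accession. Taken gene by gene, the lowest Sunraycer library lay above every other library in 144 of the 213 members (67.6%). Over all genes of the table this held for 2.51%, but the rule itself selects for it.

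**Figure D2:**
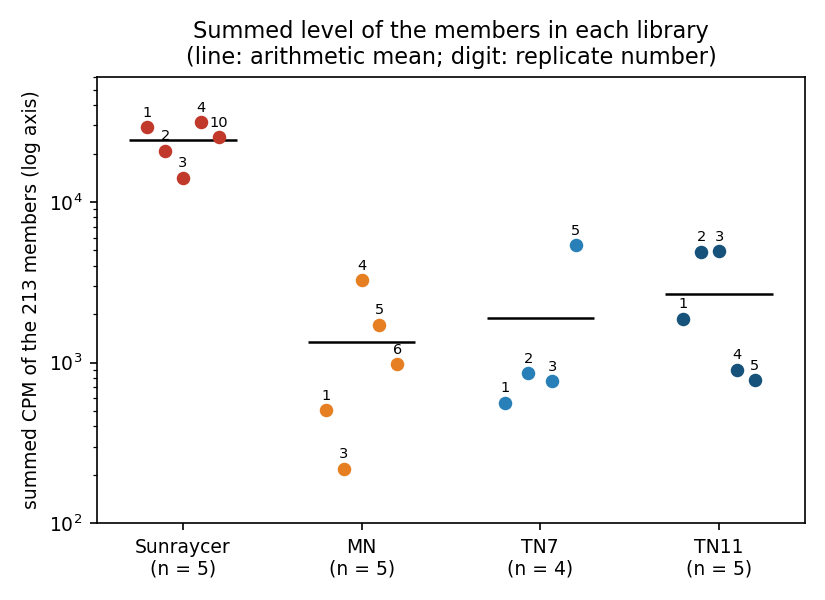
Summed CPM of the 213 members in each library (log axis), by accession, with the replicate number above each point and the arithmetic mean as a line. The Sunraycer libraries lie between 14127 and 31320.3 CPM, while libraries of the same accession differ widely in MN (218 to 3262 CPM), TN7 (561 to 5353 CPM) and TN11 (773 to 4939 CPM).

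The 5 members with the highest Sunraycer means are given library by library. CPM is not divided by gene length, so this order of genes also depends on their lengths. Prupe.1G069800.v2.1 had 4857, 2643, 1484, 1607 and 1495 CPM in Sunraycer 1, 2, 3, 4 and 10. Elsewhere it had 15.9, 12.1, 791, 194 and 212 CPM in MN 1, 3, 4, 5 and 6, 135, 259, 276 and 1178 CPM in TN7 1, 2, 3 and 5, and 218, 444, 1047, 184 and 79.7 CPM in TN11 1 to 5. Its Sunraycer mean was 5.23 times the TN7 mean, yet TN7 5 came close to the lowest Sunraycer libraries. Without Sunraycer 1 its ratio to the largest other mean was 3.91, below the limit of 5.

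Prupe.3G144100.v2.1 had 1388, 2052, 1155, 2059 and 2093 CPM in Sunraycer 1, 2, 3, 4 and 10. It had 2.49, 0.226, 16.4, 78.0 and 1.30 CPM in MN 1, 3, 4, 5 and 6, 5.45, 7.24, 4.21 and 94.6 CPM in TN7 1, 2, 3 and 5, and 125, 649, 365, 14.0 and 34.2 CPM in TN11 1 to 5. Sunraycer was fairly even here, whereas the MN libraries ranged from below 1 CPM to 78.0 CPM. Prupe.7G050900.v2.1 had 1598, 601, 1759, 1943 and 1719 CPM in Sunraycer 1, 2, 3, 4 and 10. It had 3.56, 2.76, 57.1, 69.5 and 6.24 CPM in MN 1, 3, 4, 5 and 6, 3.04, 11.4, 1.53 and 501 CPM in TN7 1, 2, 3 and 5, and 134, 833, 481, 18.9 and 29.4 CPM in TN11 1 to 5. Its groups overlapped, because TN11 2 lay above Sunraycer 2.

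Prupe.2G085000.v2.1 had 1526, 347, 699.6, 1097 and 1147 CPM in Sunraycer 1, 2, 3, 4 and 10. Elsewhere it had 1.66, 0, 205, 35.6 and 38.9 CPM in MN 1, 3, 4, 5 and 6, 0.670, 3.10, 1.04 and 188 CPM in TN7 1, 2, 3 and 5, and 44.6, 185, 138, 16.6 and 15.3 CPM in TN11 1 to 5. MN 4, TN7 5 and TN11 2 were each the highest of their accession. Prupe.1G205600.v2.1 differed from these 4 genes in having no count at all in TN7. It had 860.4, 1029, 571, 2321 and 710.5 CPM in Sunraycer 1, 2, 3, 4 and 10, 1.19, 0, 2.88, 22.0 and 0.336 CPM in MN 1, 3, 4, 5 and 6, and 141, 163, 200.1, 14.0 and 35.8 CPM in TN11 1 to 5.

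Some members were close to silent outside Sunraycer. All 3 other means were below 1 CPM in 44 of the 213 members, and 2 members had no count in any of the other 14 libraries. Prupe.6G049400.v2.1 had 5.75, 11.3, 12.2, 15.1 and 10.2 CPM in Sunraycer 1, 2, 3, 4 and 10. Prupe.4G046500.v2.1 had 8.79, 8.25, 9.60, 8.36 and 5.84 CPM in the same libraries. Both were present in each of the 5 Sunraycer libraries, and the second gene varied less between them than the first. Against 3 counts over an accession, the limit that a count of 0 allows, Prupe.6G049400.v2.1 was at least 382-fold higher in Sunraycer than in MN, at least 297-fold higher than in TN7 and at least 390.3-fold higher than in TN11. For Prupe.4G046500.v2.1 these bounds were 286, 222 and 292. Such bounds cover counting error only, and reads of an allele that do not align to the gene model would also give 0, which was not tested.

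The members with the largest ratios included genes carried by few Sunraycer libraries. Prupe.4G263200.v2.1 had 20.4 and 18.3 CPM in Sunraycer 1 and 2 but 0.0672, 0.151 and 0 CPM in Sunraycer 3, 4 and 10. Outside Sunraycer it had 1 count, in MN. Its ratio of accession means was 657, with 391 without Sunraycer 1 and 434 without Sunraycer 2. From counts pooled over each accession the ratio was 922, with a 95% counting interval of 165 to 36474. Prupe.7G132400.v2.1 had 0.163, 3.06, 0.470, 54.6 and 9.77 CPM in Sunraycer 1, 2, 3, 4 and 10, with 3 counts over MN, 1 over TN7 and 5 over TN11. Most of its signal came from Sunraycer 4. Prupe.4G262200.v2.1 had 1.52, 0.531, 0.134, 2.12 and 43.9 CPM in Sunraycer 1, 2, 3, 4 and 10, with no count in MN, 5 over TN7 and 6 over TN11, so Sunraycer 10 carried it. Prupe.8G098800.v2.1 was highest in Sunraycer 2, with 4.67, 18.4, 3.49, 4.33 and 1.43 CPM in Sunraycer 1, 2, 3, 4 and 10 against 2 counts over MN, 2 over TN7 and 4 over TN11. Prupe.4G099500.v2.1 combined a high level with a large ratio. It had 189, 38.0, 77.0, 1359.9 and 709 CPM in Sunraycer 1, 2, 3, 4 and 10, and means of 0.250 CPM in MN (n = 5, SD 0.245), 2.92 CPM in TN7 (n = 4, SD 4.51) and 2.60 CPM in TN11 (n = 5, SD 2.16).

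**Figure D3:**
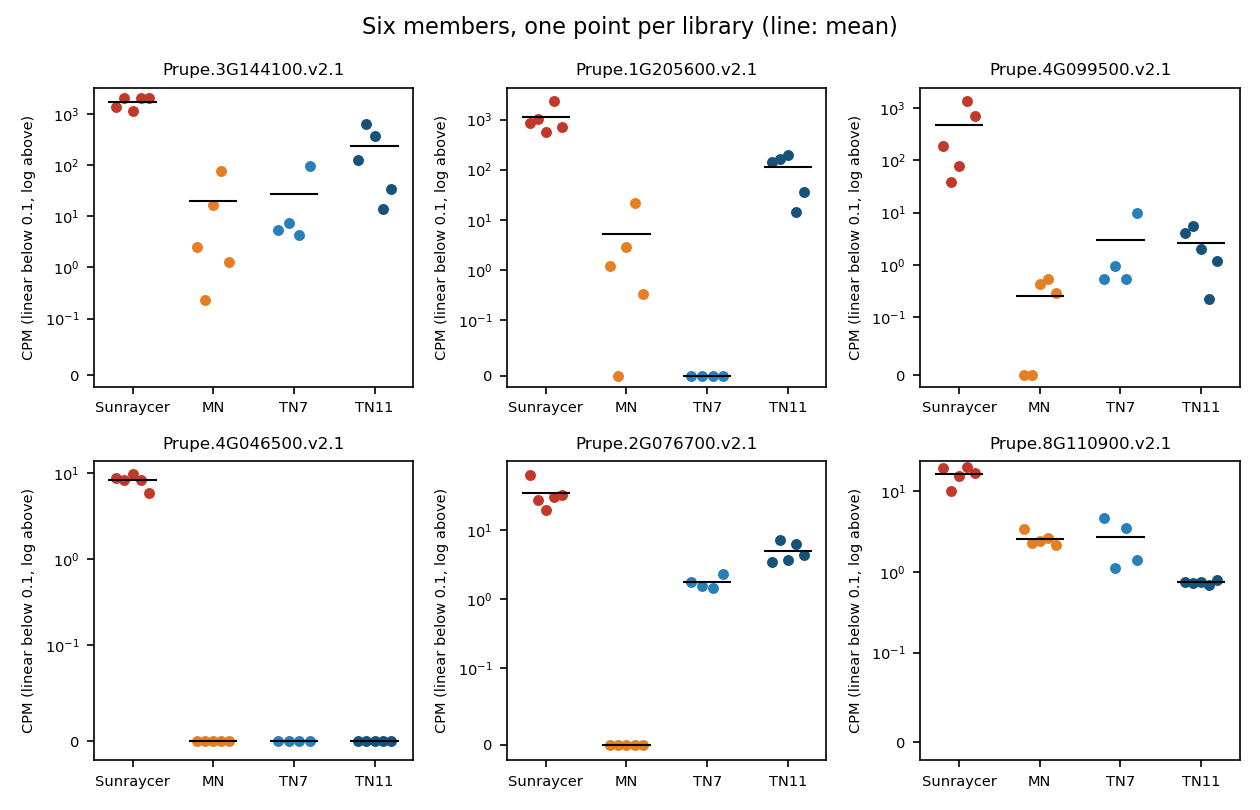
CPM of 6 members in each library (axis linear below 0.1 CPM and logarithmic above), with the mean of each accession as a line. Prupe.4G046500.v2.1 is present in Sunraycer only, Prupe.1G205600.v2.1 has no count in TN7 and Prupe.2G076700.v2.1 none in MN, while Prupe.3G144100.v2.1 and Prupe.4G099500.v2.1 spread widely within MN, TN7 and TN11, and Prupe.8G110900.v2.1 is even in TN11 (0.697 to 0.805 CPM) and less so in TN7 (1.13 to 4.69 CPM).

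Within Sunraycer the members differed in their spread and in which library was highest. The highest library exceeded the lowest by 4.50 times in the median member, by under 3 times in 43 members and by over 10 times in 51. Of the 213 members, 71 were highest in Sunraycer 1 (33.3%, against 25.4% of all genes with a mean of at least 1 CPM in Sunraycer) and 53 in Sunraycer 10 (24.9%, against 19.3%). A further 47 were highest in Sunraycer 4 (22.1%, against 11.8%) and 40 in Sunraycer 2 (18.8%, against 13.2%). Only 2 were highest in Sunraycer 3 (0.939%, against 30.2%), the library with the smallest total of the 19. The rule used these libraries, so nothing is read from these shares. Sunraycer 3 was the lowest library for 94 members and Sunraycer 2 for 64. In 42 members 1 library held over 50% of the summed Sunraycer level: Sunraycer 10 in 15, Sunraycer 2 in 10, Sunraycer 1 in 9 and Sunraycer 4 in 8. That share passed 80% in 5 members.

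The rule used only the means of the other accessions, so how members varied between libraries of MN, of TN7 and of TN11 was not fixed by it. In each of these accessions a few libraries held the high values. Of 131 members with a mean of at least 1 CPM in TN7, 109 were highest in TN7 5 (83.2%, against 24% of all genes at that level). TN7 1, TN7 2 and TN7 3 were highest for 10, 7 and 5 of them, against 20.7%, 30.3% and 25% of all genes. In MN, 79 of 123 such members were highest in MN 4 (64.2%, against 23.2%) and 29 in MN 5 (23.6%, against 17%). In TN11, 78 of 150 were highest in TN11 2 (52.0%, against 20.6%) and 55 in TN11 3 (36.7%, against 16.6%). MN 1 was the highest library for 15 of the 123 (12.2%, against 25.9%), and MN 3 and MN 6 for 0, against 19.8% and 14.1% of all genes; MN 3 was the lowest for 76. TN11 1, TN11 4 and TN11 5 were highest for 6, 7 and 4 of the 150, against 30.2%, 13.8% and 18.7% of all genes. These shares are a description, because members that move together are not independent. The limit of 1 CPM was on the mean of the same libraries, so a member can reach it through a single high library. What this adds to the shares was not tested. Total counts were 18693551 in TN7 5 (18693551 to 22385808 over TN7), 21156560 in MN 4 and 24126571 in MN 5 (16857056 to 24126571 over MN). They were 23091696 in TN11 2 and 21308132 in TN11 3 (18895521 to 23091696 over TN11). The part of depth in these shares was not tested. Whether sampling stage or tissue makeup moved with these libraries is not in the labels and was not tested.

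**Figure D4:**
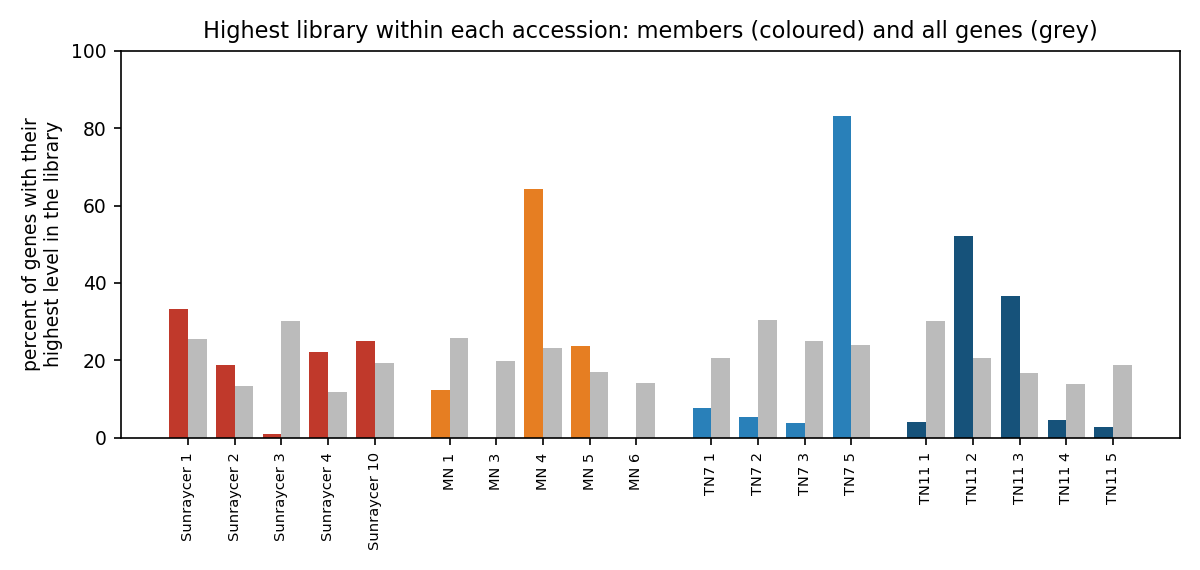
Percent of genes with their highest level in each library of an accession, for members (coloured) and for all genes (grey) with a mean of at least 1 CPM in that accession. TN7 5 was the highest TN7 library for 83.2% of the members and MN 4 the highest MN library for 64.2%, against 24% and 23.2% of all genes. A member can reach the limit on the mean through a single high library.

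The spread of members between libraries was wide. On the log2(CPM + 0.5) scale the median SD within Sunraycer was 0.876 over the 213 members, against 0.357 over all genes with a mean of at least 1 CPM there. Within MN it was 1.31 over 123 members against 0.174 over all genes, within TN7 1.32 over 131 members against 0.241, and within TN11 0.966 over 150 members against 0.196. Members are lower in these 3 accessions than most genes, and counting noise adds to the SD of a low gene. The limit on the mean can also be reached through a single high library, which favours a large SD. The part of either was not tested.

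Most members also spread in the same direction. With each accession's mean subtracted, the first principal component of the 14 libraries of MN, TN7 and TN11 held 74.3% of the members' variance, and 194 members had the same sign along it and 17 the opposite sign. Over the 18058 genes with a mean of at least 1 CPM in MN, TN7 or TN11, the first component held 49.3%. Its weight for TN7 5 was 0.506 over the members and 0.538 over all genes, that for MN 4 was 0.351 and 0.359, and that for MN 3 was −0.355 and −0.335. The weights of the other TN7 libraries lay further apart: −0.211 and −0.291 for TN7 1, −0.127 and 0.0050 for TN7 2, and −0.168 and −0.252 for TN7 3. The members are part of the larger set wherever they reach its level, and the likeness of the weights was not tested.

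Members grouped by their highest Sunraycer library also differed in how they varied elsewhere. The 71 members highest in Sunraycer 1 had a median log2 excess of TN7 5 over the other TN7 libraries of 2.31. This excess was 1.49 for the 47 members highest in Sunraycer 4, 1.33 for the 53 highest in Sunraycer 10 and 0.332 for the 40 highest in Sunraycer 2. TN11 3 gave the same order at its ends, with 1.09 for the members highest in Sunraycer 1 and 0.0705 for those highest in Sunraycer 2. MN 4 had an excess over the other MN libraries of 1.44 for the members highest in Sunraycer 1 and 0.126 for those highest in Sunraycer 2. For MN 5 the excess was largest, at 1.48, for the members highest in Sunraycer 2. It was 0.661, 0.669 and 0.519 for those highest in Sunraycer 1, 4 and 10. The grouping was made after the values were seen and carries no test.

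**Figure D5:**
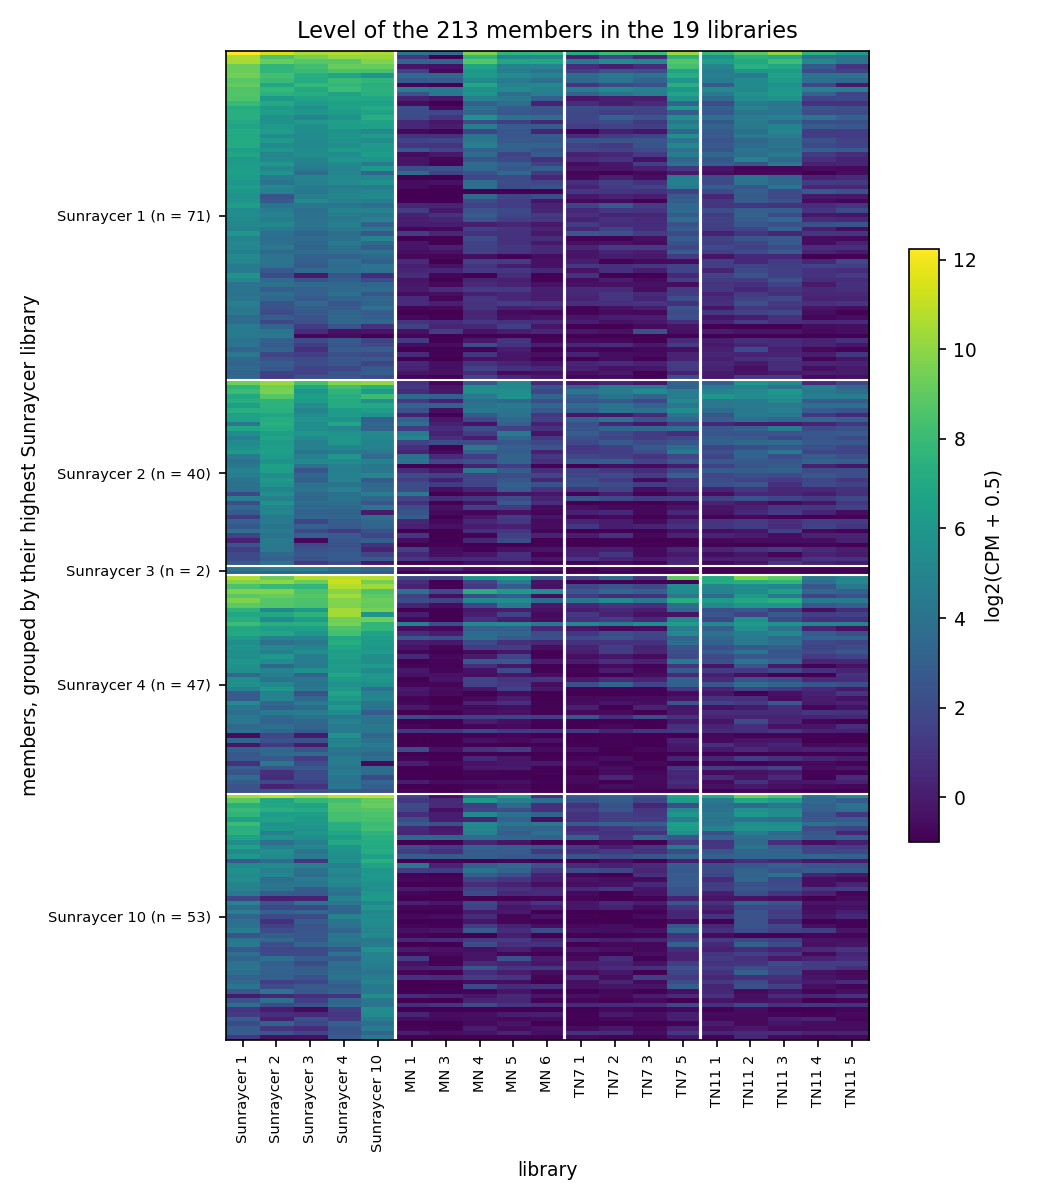
Level of each of the 213 members, as log2(CPM + 0.5), in the 19 libraries; rows are grouped by the Sunraycer library in which the member is highest and columns by accession. Most Sunraycer cells are brighter than the rest of their row, and TN7 5, TN11 2, TN11 3, MN 4 and MN 5 stand out in their accessions.

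Members lay in all of the 8 numbered series that the gene IDs carry (1G to 8G). Their share was highest in series 4 (32 of 2897 genes, 1.10%) and lowest in series 6 (20 of 3662 genes, 0.546%). In table order 33 members were next to another member, and 5 separate windows of 10 neighbouring genes held at least 3 members. The densest ran from Prupe.1G032400.v2.1 to Prupe.1G032900.v2.1, where 5 of 6 genes were members. The gene between them that was not, Prupe.1G032600.v2.1, had means of 6.27 CPM in Sunraycer, 4.60 CPM in MN, 5.95 CPM in TN7 and 5.83 CPM in TN11.

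In that window Prupe.1G032500.v2.1 was the most abundant member, with 94.5, 98.6, 72.5, 324 and 333 CPM in Sunraycer 1, 2, 3, 4 and 10. Its means were 2.76 CPM in MN (n = 5, SD 3.47), 7.78 CPM in TN7 (n = 4, SD 11.5) and 12.0 CPM in TN11 (n = 5, SD 5.23). Prupe.1G032800.v2.1 had 11.6, 24.6, 8.33, 122 and 65.6 CPM in Sunraycer 1, 2, 3, 4 and 10 and a largest other mean of 0.444 CPM, in TN11. All 5 members of the window were higher in Sunraycer 4 than in Sunraycer 1, 2 and 3. Sunraycer means of Prupe.1G032400.v2.1, Prupe.1G032700.v2.1 and Prupe.1G032900.v2.1 were 14.7, 8.62 and 16.0 CPM, and the largest other means were 0.360, 0.289 and 0.977 CPM.

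The 3 neighbours of another window, in series 3, were also all members, at very different levels. Prupe.3G144000.v2.1 had 648, 1124, 339, 884 and 1030.2 CPM in Sunraycer 1, 2, 3, 4 and 10, next to Prupe.3G144100.v2.1 described above. Prupe.3G144200.v2.1 had 15.8, 8.05, 3.76, 6.15 and 2.44 CPM in the same libraries. The first pair shared its low library, Sunraycer 3, while the third gene was highest in Sunraycer 1. In a window of series 1, Prupe.1G439500.v2.1, Prupe.1G439800.v2.1 and Prupe.1G440100.v2.1 had Sunraycer means of 11.4, 9.01 and 21.1 CPM and largest other means of 0.573, 0.626 and 0.222 CPM. In none did the lowest Sunraycer library lie above every other library. In Sunraycer 1, 2, 3, 4 and 10 the first had 0.380, 1.92, 0.470, 33.3 and 21.1 CPM. The second had 14.4, 20.8, 3.36, 1.91 and 4.59 CPM and the third 2.93, 0.613, 0.672, 28.1 and 73.3 CPM. The non-member Prupe.1G439600.v2.1 between them had means of 0.0134 CPM in Sunraycer, 0 CPM in MN, 28.2 CPM in TN7 and 45.8 CPM in TN11. The other genes between them were below 1 CPM in each accession. How reads shared by near-identical neighbours were divided is not recorded, so levels of single genes in such windows are uncertain if they are close copies.

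Comparisons among MN, TN7 and TN11 do not use Sunraycer, and edgeR's quasi-likelihood test was fitted to their 14 libraries alone. The rule did use the largest of their means, so these values are not independent of how the members were chosen. A gene was called at an adjusted p below 0.05 and at least 2-fold. Of the 213 members, 183 had enough counts in these libraries to be tested and 30 did not, so the counts do not describe all members. A member nearly absent in MN, for example, can be tested through its level in TN11. What the choice of members and this limit on counts add to the shares below was not tested.

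MN was set against TN7, the peach of the same stated genotype. Among the 183 members 8 were higher and 15 lower in MN, 23 in all or 12.6%, near the 11.4% called among all 19022 genes tested (3.35% higher and 8.01% lower). Their median log2 difference was −0.41, against −0.0012 over all genes. That median changed sign without TN7 5, to 0.91, and 18 members were then called, 9 higher and 9 lower (9.63% of members, against 9.89% of all genes). Left out in turn, the other libraries of MN and TN7 gave medians between −1.001 (without MN 4) and −0.12 (without MN 3). Blocking on the replicate number left 13 members called, 6 higher and 7 lower in MN (7.10%, against 9.35% of all genes). That block was fitted with the TN11 libraries included, and whether the numbers mark a pairing between accessions was not tested. Limma-voom called 14 (7.65%, against 11.2%) and DESeq2 28 (15.3%, against 12.0%).

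MN was also set against TN11, a comparison that shares its MN libraries with the one above. Here 5 were higher and 35 lower in MN, 40 in all or 21.9%, against 15.5% of all genes. The background was 4.3% for higher and 11.2% for lower genes, so lower calls prevail among all genes as well. The median log2 difference was −0.99 over the members and 0.0061 over all genes. It was −0.54 without TN11 2, −0.59 without TN11 3 and −1.37 without MN 4. Without TN11 2 the members called were 27 (15.5%, against 13.9% of all genes), and without TN11 3 they were 31 (17.5%, against 15.1%). They were 54 (28.9%, against 16.2%) without TN7 5, whose accession shares the fit. DESeq2 called 48 (26.2%, against 15.9%) and limma-voom 45 (24.6%, against 15.7%).

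TN7 was last compared with TN11, both of them used above. In this pair 4 members were higher and 5 lower in TN7, 9 in all or 4.92%, near the 4.97% of all genes (1.86% higher and 3.11% lower), and the median log2 difference was −0.54. This count too depended on TN7 5: without it 32 of 187 members were called, 2 higher and 30 lower (17.1%, against 5.60% of all genes), and the median was −1.95. The medians without TN7 1, TN7 2, TN7 3, TN11 2 and TN11 3 were −0.30, −0.35, −0.31, −0.27 and −0.29. Those without TN11 1, TN11 4 and TN11 5 were −0.57, −0.71 and −0.72. Limma-voom gave a median of −1.07 and the replicate block −1.11. Over all genes the median in the main fit was 0.0014. Without TN11 3 there were 6 members called (3.39%, against 4.73% of all genes). DESeq2 on all 14 libraries called 18 members (9.84%, against 5.69% of all genes).

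Prupe.2G076700.v2.1 gave the lowest adjusted p against both peaches. It had 63.3, 26.8, 19.7, 29.8 and 32.0 CPM in Sunraycer 1, 2, 3, 4 and 10, no count in MN, 1.74, 1.53, 1.44 and 2.30 CPM in TN7 1, 2, 3 and 5, and 3.44, 7.23, 3.61, 6.19 and 4.36 CPM in TN11 1 to 5. The accessions did not overlap, with Sunraycer highest and MN at 0. It was at least 61.3-fold lower in MN than in TN7 (edgeR adjusted p = 5.25e-06) and at least 174-fold lower in MN than in TN11 (edgeR adjusted p = 4.9e-07). Between the peaches it was lower in TN7, by a log2 difference of −1.53 (SE 0.286, edgeR adjusted p = 0.00714).

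Prupe.1G093600.v2.1 and Prupe.8G064300.v2.1 were likewise lower in MN than in the peaches. Prupe.1G093600.v2.1 had 47.6, 24.8, 44.3, 85.2 and 75.8 CPM in Sunraycer 1, 2, 3, 4 and 10, 0.0593, 0, 0.142, 0.373 and 0 CPM in MN 1, 3, 4, 5 and 6, 0.536, 2.12, 0.841 and 4.17 CPM in TN7 1, 2, 3 and 5, and 7.25, 17.9, 4.93, 3.66 and 5.83 CPM in TN11 1 to 5. Its MN minus TN11 log2 difference was −5.97 (edgeR adjusted p = 8.37e-05, SE 0.839) and its MN minus TN7 difference −3.91 (SE 0.870, edgeR adjusted p = 0.00446). Prupe.8G064300.v2.1 averaged 24.6 CPM in Sunraycer (n = 5, SD 12.4) and 0.581 CPM in MN (n = 5, SD 0.148), against 2.23 CPM in TN7 (n = 4, SD 1.64) and 4.27 CPM in TN11 (n = 5, SD 1.26). Its MN minus TN7 difference was −1.92 (SE 0.425, edgeR adjusted p = 0.00434).

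Some members from series 8 were called higher in MN than in either peach. They include Prupe.8G093100.v2.1, with means of 1.39 CPM in MN, 0.117 CPM in TN7 and 0.0822 CPM in TN11. Prupe.8G080300.v2.1 had 84.4, 35.1, 21.4, 28.7 and 65.9 CPM in Sunraycer 1, 2, 3, 4 and 10, 4.09, 4.70, 10.97, 5.60 and 7.54 CPM in MN 1, 3, 4, 5 and 6, 0.313, 0.345, 0.594 and 1.71 CPM in TN7 1, 2, 3 and 5, and 0.370, 0.0866, 0.0939, 0.174 and 0.142 CPM in TN11 1 to 5. Its MN minus TN7 log2 difference was 3.16 (edgeR adjusted p = 0.000436, SE 0.506) and its MN minus TN11 difference 5.22 (edgeR adjusted p = 5.6e-06, SE 0.544). Every library of either nectarine lay above every library of either peach. Prupe.8G093600.v2.1 averaged 40.7 CPM in Sunraycer (n = 5, SD 33.7) and 6.33 CPM in MN (n = 5, SD 4.66), against 0.154 CPM in TN7 (n = 4, SD 0.188) and 0.126 CPM in TN11 (n = 5, SD 0.0852). Its MN minus TN7 difference was 5.35 (SE 0.821, edgeR adjusted p = 0.000311). In this gene Sunraycer 10 (9.71 CPM) lay below MN 1 (11.4 CPM) and MN 5 (11.2 CPM).

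Prupe.8G110900.v2.1 was even within most accessions. It had 19.7, 10.2, 15.6, 20.1 and 16.8 CPM in Sunraycer 1, 2, 3, 4 and 10, 3.38, 2.26, 2.41, 2.65 and 2.16 CPM in MN 1, 3, 4, 5 and 6, 4.69, 1.13, 3.51 and 1.39 CPM in TN7 1, 2, 3 and 5, and 0.741, 0.736, 0.751, 0.697 and 0.805 CPM in TN11 1 to 5. TN11 lay below every other library, with a TN7 minus TN11 difference of 1.81 (SE 0.349, edgeR adjusted p = 0.00393) and an MN minus TN11 difference of 1.76 (SE 0.336, edgeR adjusted p = 0.000946). Prupe.1G205600.v2.1, without a count in TN7, was at least 3013-fold lower in TN7 than in TN11 (edgeR adjusted p = 0.00696). Prupe.1G469700.v2.1 was higher in TN7 (5.37 ± 3.87 CPM, SD, n = 4) than in TN11 (1.43 ± 0.217 CPM, SD, n = 5), a log2 difference of 1.89 (edgeR adjusted p = 0.018, SE 0.475). That call ended without TN7 5 (adjusted p = 0.0527), with limma-voom (adjusted p = 0.0511) and in an edgeR fit that included Sunraycer (adjusted p = 0.0685).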

How the data were processed

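The authors deposited 1 table of estimated counts by gene for 19 libraries; every value was already whole. The submitters' processing notes list Bowtie2 2.5.1, RSEM 1.2.31, R 4.1.1 and DESeq2 without saying what each did. Genome build, strand setting and any filter: not given in the sources used here. The members and lists were chosen with earlier results of these data known.

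CPM used column sums. The tests were fitted with edgeR 4.0.16 (filterByExpr, TMM, glmQLFit, glmQLFTest, Benjamini-Hochberg adjustment, R 4.3.3) and tested on simulated data; limma 3.58.1 and DESeq2 1.42.0 gave alternatives. SE values are the absolute log2 difference over the root of F. Figures and summaries used Python 3.11.15 and SciPy 1.17.1. Same-numbered libraries of MN and TN7 deviated together from their accession means (correlations 0.427 to 0.498 across genes in 3 pairs). For MN and TN11 the correlations were −0.387 to −0.0250, and for TN7 and TN11 −0.618 to 0.304. Differently numbered libraries were not correlated, so these values cannot show whether the number marks a pairing.

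Named members were the first by Sunraycer mean, by ratio, without a count elsewhere, by adjusted p in each comparison, nearest the limits and in the densest windows. The planned lists by product name and promoter motifs were not run, since no annotation of these IDs was used here. Intervals and floors cover counting error only.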

Additional observations from a re-analysis of the deposited data

Results flagged for a closer look

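Values of the 26 members described library by library, and the members' summed level, were examined within each accession for a library far from the others. Of 97 such groups 29 had one. A single count among libraries without any was flagged too, so this number is not set against a chance rate. The members move together, so these are not separate signs.

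TN7 5 stood above the other TN7 libraries in the summed level (5353 CPM, others 561 to 858 CPM). Among members it had 1178 CPM of Prupe.1G069800.v2.1, 94.6 CPM of Prupe.3G144100.v2.1, 501 CPM of Prupe.7G050900.v2.1 and 188 CPM of Prupe.2G085000.v2.1. It also had 9.68 CPM of Prupe.4G099500.v2.1, 8.72 CPM of Prupe.3G144000.v2.1 and 1.02 CPM of Prupe.3G144200.v2.1. In the window of series 1 it had 1.39 CPM of Prupe.1G032400.v2.1, 25.04 CPM of Prupe.1G032500.v2.1, 0.909 CPM of Prupe.1G032700.v2.1 and 0.428 CPM of Prupe.1G032900.v2.1. TN7 2 held the only count of Prupe.7G132400.v2.1 in its accession (0.0493 CPM).

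In MN, MN 4 was far above the rest for Prupe.1G069800.v2.1 (791 CPM) and Prupe.2G085000.v2.1 (205 CPM). MN 5 was far above them for Prupe.3G144100.v2.1 (78.0 CPM), Prupe.3G144000.v2.1 (33.0 CPM), Prupe.1G205600.v2.1 (22.0 CPM) and Prupe.1G032400.v2.1 (0.580 CPM). MN 1 held the only count of Prupe.4G263200.v2.1 in MN (0.0593 CPM). TN11 2 was far above the rest for Prupe.1G093600.v2.1 (17.9 CPM) and Prupe.1G032900.v2.1 (3.64 CPM).

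Within Sunraycer, library 4 was far above the others for Prupe.1G205600.v2.1 (2321 CPM) and Prupe.7G132400.v2.1 (54.6 CPM), and library 10 for Prupe.4G262200.v2.1 (43.9 CPM). Library 1 was far above them for Prupe.2G076700.v2.1 (63.3 CPM) and Prupe.1G469700.v2.1 (83.6 CPM). Library 2 was far above for Prupe.8G098800.v2.1 (18.4 CPM) and far below for Prupe.7G050900.v2.1 (601 CPM).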

How the results depend on the processing

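The number of members, 213, was 268 with TMM scaling and 279 with accession medians, of which 213 and 171 were members in the rule as given; it was 317 and 100 with ratios of 4 and 8, and 253 and 170 with levels of 3 and 10 CPM. Leaving out each of the 19 libraries gave 185 (without Sunraycer 1) to 270 (without TN7 5). Without Sunraycer 1 and TN7 5, chosen after the data were seen, it was 213, of which 176 were the same genes. Some described members fell below the ratio of 5 when a single Sunraycer library was left out. Without Sunraycer 1 the ratio was 3.91 for Prupe.1G069800.v2.1, 4.44 for Prupe.8G093600.v2.1 and 3.12 for Prupe.1G469700.v2.1. Without Sunraycer 4 it was 4.74 for Prupe.7G050900.v2.1. Members called for MN minus TN7 numbered 28 with the DESeq2 test, 14 with limma-voom and 13 with the replicate block, against 23. They numbered 17 to 26 without each library in turn and 17 without TN7 5 and MN 4. For MN minus TN11 the count was 48 with the DESeq2 test, 45 with limma-voom and 27 with the replicate block, against 40. It was 27 to 54 without each library and 58 without TN7 5 and MN 4. For TN7 minus TN11 it was 18 with the DESeq2 test, 12 with the replicate block, 6 to 32 without each library and 36 without TN7 5 and MN 4 (chosen after the data were seen), against 9. Whether the replicate numbers pair libraries between accessions was not tested, so the blocked counts carry no weight of their own. The blocked count for MN minus TN7 came from the same fit, TN11 included, so it shares this limit. The share of variance along the main direction was 68.8% to 76.9% without each library. Of 374 repeats of the log2 differences of described members none changed sign and 12 lost the call, all for TN7 minus TN11. The filter on low counts in the 14 libraries left 30 members untested in these comparisons.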

Other observations

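In the reverse direction, 14 genes had MN, TN7 and TN11 means of at least 5 CPM that were each at least 5 times the Sunraycer mean. Here all 3 means had to reach 5 CPM, whereas for the 213 members only the Sunraycer mean did. The 2 counts are therefore not set against each other. In TN7 5 the median deviation from the accession mean was 0.96 on the log2 scale over the 213 genes high in Sunraycer and −0.31 over these 14. In MN 4 the medians were 0.70 and −0.04, and in TN11 2 they were 0.58 and 0.08. No test is attached to these values, since the 2 sets were chosen on opposite differences of the same libraries.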
